A study of Homo sapiens with 12 samples.

Results

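Transcript levels of 9 human genes of lipid use were followed: 6 target-type genes of the peroxisome proliferator-activated receptors (PPARs), which are PDK4, ANGPTL4, PLIN2, CPT1A, ACADVL and FABP4, and the 3 receptor genes PPARD, PPARG and PPARA. The set was taken by gene symbol from a table of 57773 genes, and all 9 were found. It had been chosen by its measured values in these same libraries, and it is not recorded which comparison weighed in that choice. Every contrast of these genes is therefore given as a description, with a standard error (SE) and without a p-value. Of the 9 genes, 8 passed the filter on low counts, as did 20571 genes of the whole table. FABP4 did not pass.

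The 12 RNA-seq libraries were of MDA-MB-231 cells, a widely used line from a human triple-negative breast carcinoma, grown here in serum-containing medium. In the order used below, 3 libraries came from cells given both TGFβ and alisertib, 3 from cells given TGFβ, 3 from cells given alisertib and 3 from untreated cells. Treatment lasted 48 h, no time is given for the untreated cells, and doses are not given in the sources used here. TGFβ is a cytokine whose receptors phosphorylate SMAD transcription factors, and alisertib is a drug that blocks Aurora A, a kinase needed for mitosis. Libraries are numbered through the series, so 10 to 12 had both agents, 4 to 6 TGFβ, 7 to 9 alisertib and 1 to 3 neither. The labels do not say whether the 3 libraries of a group were separate cultures, so errors and p-values measure the spread between libraries, which may be technical.

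PPARs are nuclear receptors that are activated by fatty acids and their derivatives and bind DNA as heterodimers with a retinoid X receptor (RXR). Their targets take up, store and burn fatty acids, and PDK4 and ANGPTL4 are among the target genes that respond in many cell types. PDK4 phosphorylates and inactivates the pyruvate dehydrogenase complex and so spares glucose carbon, while ANGPTL4 is secreted and inhibits lipoprotein lipase.

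PDK4 and ANGPTL4 stood on the same side of the untreated cells with alisertib and on opposite sides with TGFβ. With alisertib alone both were higher, PDK4 1.68-fold and ANGPTL4 2.77-fold. With TGFβ alone PDK4 was 4.44-fold lower and ANGPTL4 5.32-fold higher. With both agents ANGPTL4 was at its highest, 9.39 times its untreated level, whereas PDK4 lay between its levels with the single agents and 1.93-fold below the untreated level. PLIN2 and CPT1A ran like PDK4 at smaller size, and the receptors differed mainly with TGFβ: PPARD was higher, PPARG and PPARA lower.

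The promoter windows of the 4 genes that differed with alisertib also in the presence of TGFβ are shown because both agents bear on them. They come from RefSeq on GRCh38.p14, a newer build than the hg19 of the counts, and run from 250 bases before to 50 bases after the annotated start, 5′ to 3′ on the strand of the gene. PDK4 is at chr7:95596467-95596766 on the minus strand, ANGPTL4 at chr19:8363905-8364204 on the plus strand, PLIN2 at chr9:19127443-19127742 on the minus strand and CPT1A at chr11:68844228-68844527 on the minus strand. Capitals mark GTCT and its reverse complement AGAC, the short box that SMAD proteins are known to bind.
PDK4: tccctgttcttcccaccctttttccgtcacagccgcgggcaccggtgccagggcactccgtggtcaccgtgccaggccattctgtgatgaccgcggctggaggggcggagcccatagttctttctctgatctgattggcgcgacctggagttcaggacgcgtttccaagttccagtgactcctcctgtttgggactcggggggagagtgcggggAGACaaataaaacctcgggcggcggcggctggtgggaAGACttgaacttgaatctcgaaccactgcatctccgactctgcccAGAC
ANGPTL4: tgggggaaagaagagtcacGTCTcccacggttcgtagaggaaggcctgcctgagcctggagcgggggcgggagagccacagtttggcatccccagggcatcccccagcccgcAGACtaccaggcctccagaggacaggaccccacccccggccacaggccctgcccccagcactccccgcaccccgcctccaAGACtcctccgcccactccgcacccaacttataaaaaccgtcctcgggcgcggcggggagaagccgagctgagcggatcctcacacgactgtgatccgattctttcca
PLIN2: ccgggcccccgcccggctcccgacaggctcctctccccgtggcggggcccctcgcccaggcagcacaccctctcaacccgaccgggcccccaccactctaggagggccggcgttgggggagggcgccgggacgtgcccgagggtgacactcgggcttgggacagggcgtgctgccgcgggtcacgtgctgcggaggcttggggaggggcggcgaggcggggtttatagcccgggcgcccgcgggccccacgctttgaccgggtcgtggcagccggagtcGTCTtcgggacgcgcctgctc
CPT1A: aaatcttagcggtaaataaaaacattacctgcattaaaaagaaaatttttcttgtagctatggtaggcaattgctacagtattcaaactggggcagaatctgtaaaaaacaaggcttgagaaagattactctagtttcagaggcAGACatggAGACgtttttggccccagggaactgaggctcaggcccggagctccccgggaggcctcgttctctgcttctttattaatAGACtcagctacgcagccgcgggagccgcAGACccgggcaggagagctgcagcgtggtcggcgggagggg
Searched on both strands, GTCT matched 3 times in the PDK4 window, 3 times in that of ANGPTL4, 1 time in that of PLIN2 and 4 times in that of CPT1A. Of 35116 windows of the same length, 84% held it, with a median of 2 matches. The single nuclear receptor box AGGTCA, or its complement TGACCT, was in none of the 4 windows and in 13.8% of all windows. The arrangement that PPAR and RXR bind, a direct repeat of AGGTCA with 1 base between (DR1), was in 0.0228% of all windows and in none of these 4. The palindrome of GTCT followed by AGAC was in 0.202% of all windows and in none of these 4. These counts describe exact matches of letters in 300 bases, so a box or repeat that differs in any base was not counted. PPAR elements farther from the start are outside the windows. Windows were found for 8 of the 9 genes.

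Total counts per library ran from 105921831 to 120619368 with both agents and from 110282980 to 118220032 with TGFβ. They ran from 97048328 to 105563951 with alisertib alone, and from 93701658 to 100328721 in untreated cells. Each group held 1 library unlike its other 2, namely 10, 6, 9 and 1, below called the libraries that stood apart. The deviations of these 4 from their group means correlated at 0.711 to 0.860 across 11306 genes. These 4 were picked from the same data, so the correlation describes them and is not a test. ANGPTL4, ACADVL, PPARD and PPARA were lower in all 4 of these libraries than the mean of their group, while PDK4 and PPARG were higher in all 4. Markers of a mesenchymal-like breast cancer line (VIM, CD44, EGFR, AXL and SPARC) had a summed level of 5045 to 5173 CPM with both agents, 4912 to 5138 CPM with TGFβ, 3974 to 4067 CPM with alisertib and 3690 to 3846 CPM untreated. The sum was mostly VIM and CD44. AXL was lower in both groups with TGFβ, at group means of 671 CPM with both agents, 633 CPM with TGFβ, 935 CPM with alisertib and 938 CPM untreated, and SPARC was low throughout, at 0.475 to 1.01 CPM. Of 8 luminal breast markers, ESR1, PGR and FOXA1 had 8, 5 and 11 reads over all 12 libraries, but KRT8, KRT18 and ERBB2 were well expressed, and the sum was 582 to 664 CPM with both agents, 625 to 730.1 CPM with TGFβ, 611 to 714 CPM with alisertib and 589 to 747 CPM untreated. Of 6 adipocyte markers, LEP had 0 reads in all 12 libraries and ADIPOQ had 2 reads in all. Their summed level was 0.816 to 0.954 CPM with both agents, 0.900 to 1.14 CPM with TGFβ, 1.99 to 2.53 CPM with alisertib and 2.42 to 3.11 CPM untreated. That sum was mostly LPL, at group means of 0.825 CPM with TGFβ and 2.54 CPM untreated. PLIN1 had group means of 0.144 to 0.198 CPM, and CIDEC was highest with both agents, at 0.111 CPM against 0.0468 CPM untreated. Of 6 leukocyte and macrophage markers PTPRC stayed at or under 0.153 CPM as a group mean, while the sum, 44.3 to 55.6 CPM with both agents, 54.7 to 65.0 CPM with TGFβ, 12.0 to 13.0 CPM with alisertib and 9.18 to 14.5 CPM untreated, was mostly CSF1R. CPM are counts put on a common library size by trimmed mean of M-values (TMM) factors, and in such bulk samples fewer cells of a type and less RNA per cell cannot be told apart.

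**Figure D1:**
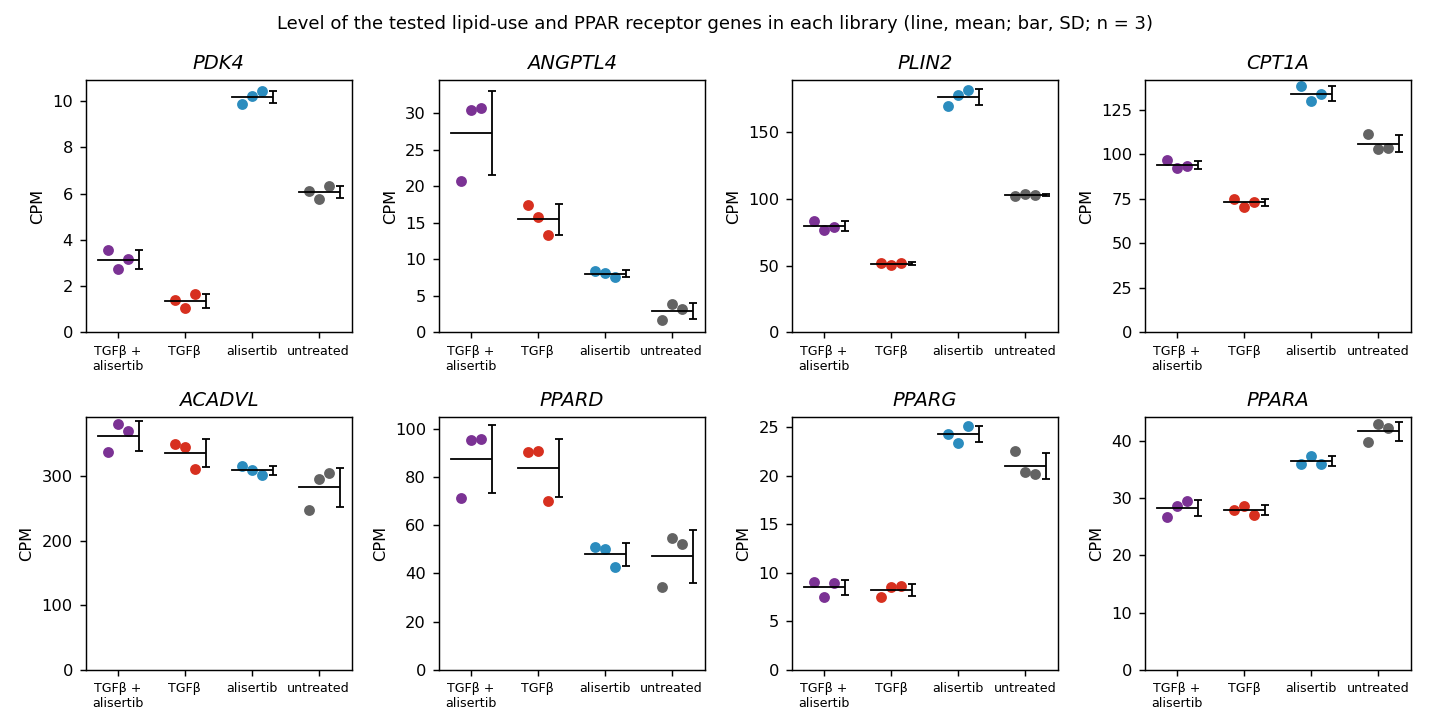
Levels in CPM of the 8 tested genes in each of the 12 libraries, by group, with the group mean as a line and the SD as a bar (n = 3). PDK4, PLIN2 and CPT1A are lowest with TGFβ and highest with alisertib, and ANGPTL4 is highest with both agents, at 20.7 to 30.8 CPM.

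PDK4, the kinase that switches off pyruvate dehydrogenase, had 3.55, 2.74 and 3.18 CPM in libraries 10 to 12 with both agents, 1.39, 1.04 and 1.66 CPM in libraries 4 to 6 with TGFβ, 9.885, 10.2 and 10.4 CPM in libraries 7 to 9 with alisertib, and 6.12, 5.79 and 6.32 CPM in untreated libraries 1 to 3. No group overlapped any other: the 3 alisertib libraries were highest, the untreated ones next, then those with both agents, and those with TGFβ lowest. In raw reads the lowest library, TGFβ library 5, held 111 and the highest, alisertib library 7, held 1080. The gene (ENSG00000004799) lies on chromosome 7 from 95212811 to 95225803 in hg19. Against untreated cells the log2 difference was -2.15 ± 0.14 (SE) with TGFβ and 0.75 ± 0.13 with alisertib. With both agents it was -0.95 ± 0.13. Without the 4 libraries that stood apart these were -2.32 with TGFβ, 0.74 with alisertib and -1.03 with both. Among cells that had TGFβ, those also given alisertib were higher by a log2 difference of 1.21 ± 0.14, or 2.31-fold, which is more by 0.46 ± 0.19 than in cells without TGFβ. Leaving out each library in turn, that last value ran from 0.30 without TGFβ library 5 to 0.63 without TGFβ library 6, and it was 0.55 without the 4 libraries that stood apart.

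ANGPTL4, the secreted inhibitor of lipoprotein lipase, had 20.7, 30.5 and 30.8 CPM with both agents (libraries 10 to 12), 17.4, 15.7 and 13.3 CPM with TGFβ, 8.45, 8.16 and 7.54 CPM with alisertib, and 1.69, 3.85 and 3.17 CPM in untreated cells. Again no group overlapped any other, and the order was both agents, TGFβ, alisertib, untreated. In every group the lowest library was the one that stood apart, with the widest gaps on the log2 scale for untreated library 1 and library 10 with both agents. The log2 difference from untreated cells was 2.41 ± 0.23 (SE) with TGFβ, 1.47 ± 0.23 with alisertib and 3.23 ± 0.23 with both. Alisertib went with a log2 difference of 0.82 ± 0.21 in cells that had TGFβ, less by 0.65 ± 0.31 than in cells that did not. Untreated library 1 bears on these values: without it the alisertib difference was 1.20 and the shortfall of the combination against the sum was a log2 difference of -0.38, while without untreated library 2 they were 1.73 and -0.92. Without the 4 libraries that stood apart the log2 differences were 2.24 with TGFβ, 1.25 with alisertib and 3.13 with both, and the combination minus the sum was -0.36. The gene (ENSG00000167772), at 8428173 to 8439257 on chromosome 19, overlaps the antisense gene RAB11B-AS1, which averaged 72.25 reads a library against 1459 for ANGPTL4. The library kit does not mark the strand, so reads in the overlap cannot be told apart.

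PLIN2 coats lipid droplets, the stores of neutral lipid in a cell. It had 83.4, 76.4 and 78.6 CPM with both agents, 52.0, 50.2 and 52.1 CPM with TGFβ, 169.5, 178 and 181 CPM with alisertib, and 102, 103 and 103 CPM in untreated cells. The 4 groups were fully separate, in the same order as for PDK4. Set against untreated cells, its log2 difference was -0.998 ± 0.05 (SE) with TGFβ, 0.78 ± 0.05 with alisertib and -0.37 ± 0.05 with both. Without the 4 libraries that stood apart these were -1.01, 0.76 and -0.41. The gene (ENSG00000147872) is at 19108373 to 19149288 on chromosome 9, and no other gene of the table overlaps it.

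CPT1A is the liver-type carnitine palmitoyltransferase of the outer mitochondrial membrane, the controlled step by which long-chain fatty acids enter mitochondria. It had 96.5, 92.2 and 93.5 CPM with both agents, 74.6, 70.6 and 73.3 CPM with TGFβ, 138, 129.6 and 134 CPM with alisertib, and 111, 103 and 104 CPM in untreated cells. The groups were separate and again in the order of PDK4, with a narrower range. The log2 difference from untreated cells was -0.54 ± 0.05 (SE) with TGFβ, 0.34 ± 0.05 with alisertib and -0.17 ± 0.05 with both. Leaving out those 4 libraries gave -0.51, 0.38 and -0.15. CPT1A (ENSG00000110090) lies on chromosome 11 from 68522088 to 68611878.

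ACADVL, the very long-chain acyl-CoA dehydrogenase of the inner mitochondrial membrane, catalyses the first step of the oxidation of long chains. It had 337, 379.9 and 369 CPM with both agents, 350.3, 345 and 312 CPM with TGFβ, 315.5, 309 and 302 CPM with alisertib, and 248, 295 and 305 CPM in untreated cells. The alisertib group overlapped the untreated one and, through TGFβ library 6, the TGFβ group, which in turn overlapped that with both agents, and the low library of each group was the one that stood apart. Relative to untreated cells the log2 difference was 0.25 ± 0.07 (SE) with TGFβ, 0.13 ± 0.07 with alisertib and 0.36 ± 0.07 with both. Without the 4 libraries that stood apart these were 0.22, 0.06 and 0.32. ACADVL (ENSG00000072778, chromosome 17, 7120444 to 7128592) overlaps DLG4, which averaged 1368 reads against 34270.

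FABP4, the fatty acid-binding protein of adipocytes and macrophages, had 2 reads in the whole series, both in TGFβ library 5, and 0 reads in the other 11 libraries. That is under the 3 reads that a count of 0 allows in a library, so no level or fold is given. FABP4 (ENSG00000170323) lies on chromosome 8 from 82390654 to 82395498 in hg19.

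PPARD encodes PPARδ, the most widely expressed of the 3 receptors. It had 71.3, 95.3 and 96.1 CPM with both agents, 90.4, 91.0 and 70.1 CPM with TGFβ, 51.1, 50.2 and 42.5 CPM with alisertib, and 34.4, 54.7 and 52.3 CPM in untreated cells. All 6 libraries with TGFβ were above all 6 without it, and the groups overlapped within each of these sets of 6. The low library of each group, 10, 6, 9 and 1, was the one that stood apart. The log2 difference from untreated cells was 0.83 ± 0.16 (SE) with TGFβ, 0.02 ± 0.16 with alisertib and 0.89 ± 0.16 with both. Without those 4 libraries it was 0.76 with TGFβ, -0.07 with alisertib and 0.84 with both. PPARD (ENSG00000112033) is on chromosome 6 from 35310335 to 35395968.

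PPARG encodes PPARγ, the receptor known for driving fat cell differentiation. It had 9.01, 7.56 and 8.92 CPM with both agents, 7.54, 8.55 and 8.59 CPM with TGFβ, 24.3, 23.4 and 25.2 CPM with alisertib, and 22.6, 20.4 and 20.2 CPM in untreated cells. The 6 libraries with TGFβ lay far below the 6 without it, and the alisertib libraries lay just above the untreated ones. Its log2 difference from untreated cells was -1.35 ± 0.08 (SE) with TGFβ, 0.21 ± 0.08 with alisertib and -1.31 ± 0.08 with both. Leaving out the 4 libraries that stood apart gave -1.33, 0.24 and -1.30. Its locus (ENSG00000132170, chromosome 3, 12328867 to 12475855) overlaps AC091492.2, which averaged 16.9 reads against 1620 for PPARG. Of its RefSeq promoter windows 3 held AGGTCA or its complement, with 2, 1 and 1 matches, and its other windows held none. The last 2 of these 3 start at 12288810 and 12288820 and so overlap in nearly all bases. A gene with several windows has more chances of a match. None of the 3 held an exact DR1.

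PPARA encodes PPARα, the receptor of fatty acid oxidation in liver and muscle. It had 26.8, 28.6 and 29.6 CPM with both agents, 27.9, 28.7 and 27.0 CPM with TGFβ, 35.9, 37.4 and 36.0 CPM with alisertib, and 39.9, 43.1 and 42.3 CPM in untreated cells. The untreated libraries were highest, those with alisertib next, and the 2 groups with TGFβ overlapped below them. The log2 difference from untreated cells was -0.58 ± 0.06 (SE) with TGFβ, -0.19 ± 0.06 with alisertib and -0.56 ± 0.06 with both. The same values were -0.59, -0.21 and -0.55 without the 4 libraries that stood apart. PPARA (ENSG00000186951) is on chromosome 22 from 46546424 to 46639653.

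Per length, as RPKM (CPM divided by the length of the gene model in kilobases), the receptor genes can be set beside each other. Their sum was 24.1 ± 3.17 RPKM with both agents, 23.1 ± 2.66 with TGFβ, 19.8 ± 0.912 with alisertib and 19.2 ± 2.30 untreated (SD, n = 3 each). PPARD made up 81.3% ± 2.72 of it with both agents, 81.1% ± 2.45 with TGFβ, 54.3% ± 2.93 with alisertib and 54.4% ± 6.89 untreated. The share of PPARG was 8.86% with both agents, 8.89% with TGFβ, 30.4% with alisertib and 27.5% untreated. That of PPARA was 9.82% with both agents, 10.1% with TGFβ, 15.3% with alisertib and 18.1% untreated. Per length, PPARD thus had the largest share of the receptor transcripts in every group, and a larger one in both groups with TGFβ. Not divided by length, untreated PPARD and PPARA were at 47.1 ± 11.1 and 41.7 ± 1.64 CPM. In untreated library 1 PPARA was above PPARD, at 39.9 against 34.4 CPM.

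**Figure D2:**
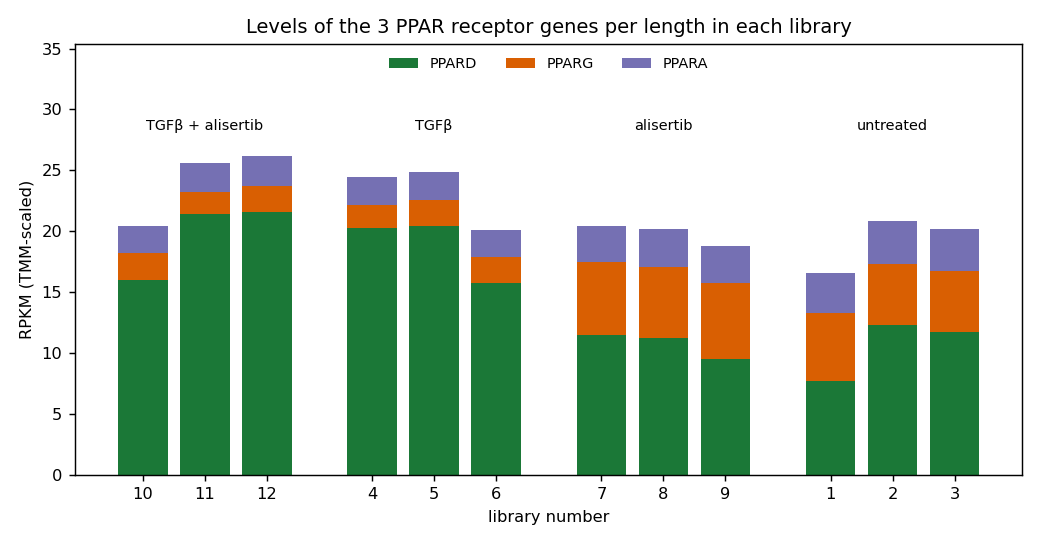
Stacked TMM-scaled RPKM of PPARD, PPARG and PPARA in each library, by group. PPARD is the largest block in every library, 46.5% of the sum in untreated library 1 and 83.5% in library 11 with both agents.

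ACADVL was the most abundant of the 8 genes in every group, at 74.4 RPKM with both agents, 69.0 with TGFβ, 63.5 with alisertib and 58.1 untreated. Below it the order was PPARD 19.6, PLIN2 15.6, CPT1A 14.3, ANGPTL4 11.0, PPARA 2.35, PPARG 2.10 and PDK4 0.698 RPKM with both agents, where PPARD overlapped PLIN2 and PPARA overlapped PPARG. With TGFβ it was PPARD 18.8, CPT1A 11.1, PLIN2 10.1, ANGPTL4 6.24, PPARA 2.31, PPARG 2.03 and PDK4 0.302 RPKM, with no overlap between neighbours. With alisertib it was PLIN2 34.6, CPT1A 20.4, PPARD 10.8, PPARG 6.01, ANGPTL4 3.24, PPARA 3.02 and PDK4 2.25 RPKM, and only ANGPTL4 and PPARA overlapped. In untreated cells it was PLIN2 20.2, CPT1A 16.1, PPARD 10.6, PPARG 5.20, PPARA 3.46, PDK4 1.34 and ANGPTL4 1.17 RPKM, and the last 2 overlapped. ANGPTL4 and PDK4 thus had overlapping levels per length in untreated cells, while ANGPTL4 was far above PDK4 in both groups with TGFβ.

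Whether the agents add up was read on 2 scales, since a sum of log2 differences and a sum of CPM differences predict other levels. On the log2 scale the combination minus the sum of the single-agent differences was -0.65 ± 0.31 (SE) for ANGPTL4, 0.46 ± 0.19 for PDK4, 0.22 ± 0.08 for PPARA, -0.16 ± 0.12 for PPARG and -0.15 ± 0.06 for PLIN2. It was 0.04 ± 0.23 for PPARD, 0.03 ± 0.07 for CPT1A and -0.02 ± 0.10 for ACADVL, each smaller than its SE. With all 12 libraries ANGPTL4, PDK4, PPARA and PLIN2 thus departed from the sum by more than 2 SE, and PPARG by more than its SE. These multiples describe the spread and are not tests. Without the 4 libraries that stood apart the combination minus the sum was -0.36 for ANGPTL4, 0.55 for PDK4, 0.25 for PPARA, -0.21 for PPARG, -0.16 for PLIN2, 0.15 for PPARD, 0.04 for ACADVL and -0.03 for CPT1A.

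For ANGPTL4, which was higher with either agent, the level with both agents was 27.3 ± 5.73 CPM (SD, n = 3). Added log2 differences would give 43.0 CPM and added CPM differences 20.6 CPM, so the measured level lay between the predictions, above the CPM sum by 6.68 ± 3.59 CPM (SE). For PDK4, with opposite single-agent differences, the level was 3.15 ± 0.405 CPM against 2.29 CPM from added log2 differences and 5.47 CPM from added CPM differences. It too lay between the predictions. For PLIN2 the level of 79.5 ± 3.61 CPM was below both predictions, 88.3 CPM from log2 and 125 CPM from CPM differences. With the log2 prediction given before the CPM prediction, CPT1A had 94.1 ± 2.19 CPM against 92.1 and 101 CPM predicted. ACADVL had 362 ± 22.5 CPM against 367 and 362 CPM. PPARD had 87.6 ± 14.1 CPM against 85.3 and 84.6 CPM. PPARG at 8.49 ± 0.814 CPM was below its predictions of 9.51 and 11.5 CPM, and PPARA at 28.3 ± 1.42 CPM was above its predictions of 24.4 and 22.6 CPM. On both scales, then, PPARA stood higher and PLIN2 lower with both agents than the single agents sum to. PPARG was lower on both scales too, but with a log2 departure of only -0.16 ± 0.12 (SE). The departures of PDK4 and ANGPTL4 turned their sign with the scale. So did that of CPT1A, which was within its SE on the log2 scale.

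**Figure D3:**
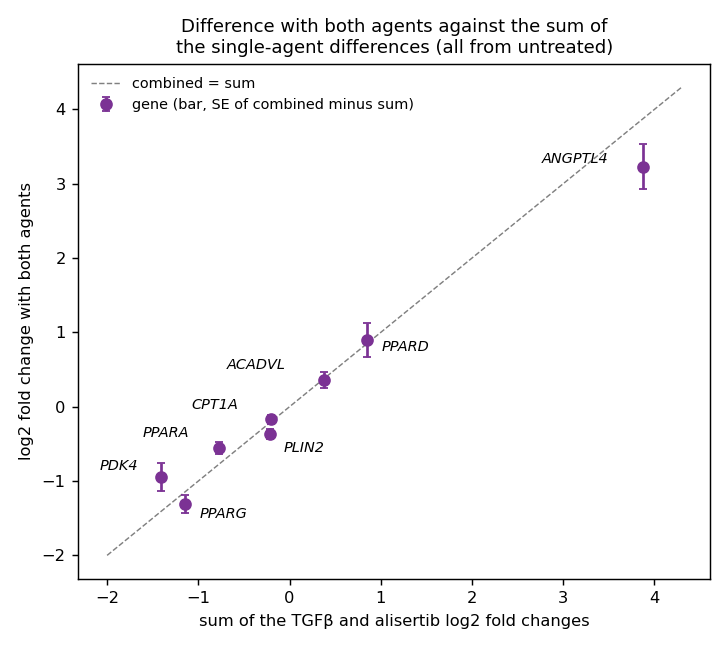
Log2 difference from untreated cells with both agents (vertical) against the sum of the log2 differences with TGFβ and with alisertib alone (horizontal) for the 8 tested genes, with the SE of combined minus sum as a bar and equality as a dashed line. ANGPTL4, at a sum of 3.88, lies below the line, PDK4, at -1.41, above it, and CPT1A, ACADVL and PPARD on it within their SE.

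Among the 8 tested genes, libraries of the 2 groups did not overlap for 8 genes between both agents and untreated cells, for 8 between TGFβ and untreated cells, and for 6 between alisertib and untreated cells. The share of all tested genes without overlap was 45.7%, 46.4% and 21.6% in these 3 comparisons. It was 4 of 8 between both agents and TGFβ alone, PDK4, ANGPTL4, PLIN2 and CPT1A, all higher with both agents, against 20.4% of all genes. It was 8 of 8 between both agents and alisertib alone, against 50.3% of all genes. Since the genes were chosen by their values, nothing is read from these counts.

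**Figure D4:**
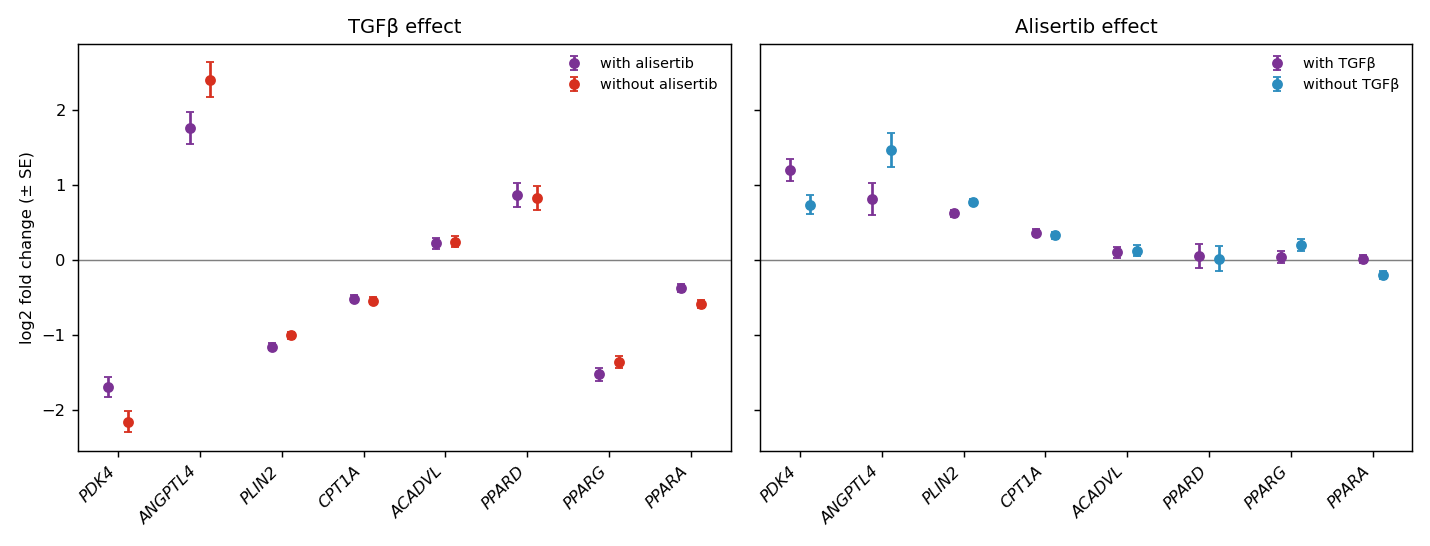
Log2 difference ± SE of each tested gene with TGFβ (left panel: among cells with alisertib, then without it) and with alisertib (right panel: among cells with TGFβ, then without it). The TGFβ differences span -2.15 for PDK4 to 2.41 for ANGPTL4. Over both settings the alisertib differences of PDK4, ANGPTL4, PLIN2 and CPT1A run from 0.34 for CPT1A to 1.47 for ANGPTL4. The genes were chosen by their values, so these differences are a description and not a test.

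To place these genes, 7 lists of other genes of the same pathways were read in the same fit: 114 symbols, all in the table, of which 100 passed the filter. A gene was called at a Benjamini-Hochberg adjusted p under 0.05 in edgeR's quasi-likelihood test over all 20571 genes. With TGFβ against untreated cells, 15 of the 100 rose and 36 fell, where 18.5% of all tested genes rose and 20.1% fell. The median log2 difference of the lists was -0.10 against -0.01 for all genes. With both agents against untreated cells 20 rose and 32 fell (19.4% and 20.3% of all genes). Against alisertib alone, cells with both agents had 15 higher and 33 lower (19.4% and 19.0% of all genes). With alisertib against untreated cells 8 rose and 3 fell (3.55% and 3.19% of all genes). With both agents against TGFβ alone 4 rose and 1 fell (1.19% and 0.890% of all genes). For the interaction, which asks whether the alisertib effect depends on TGFβ, edgeR called 0 of the 100, where 0.117% of all genes were called higher and 0.165% lower. At an unadjusted p under 0.05 it was 7 higher and 0 lower, and DESeq2 called 2 higher and 0 lower (70 and 111 of all genes). The share of all genes at the unadjusted threshold was not counted. Some genes pass an unadjusted 0.05 without any difference, so nothing is read from such counts here or in the lists below.

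The alisertib counts depend on the 4 libraries that stood apart. Without them 22 of the 100 rose and 21 fell with alisertib against untreated cells, where 2272 of all genes rose and 2801 fell. In that fit 11 of the 100 rose and 3 fell with both agents against TGFβ, where 683 of all genes rose and 751 fell. With all 12 libraries and a term for those 4, 20 rose and 20 fell with alisertib against untreated cells (1820 and 2237 of all genes). With that term 13 rose and 3 fell with both agents against TGFβ (918 and 902 of all genes). In the main fit 730 of all genes rose and 657 fell with alisertib, so the calls over all genes grew too. Leaving out untreated library 1 alone gave 19 called genes with alisertib against untreated cells in place of 11, and leaving out untreated library 2 or 3, TGFβ library 4 or 5, alisertib library 7, 8 or 9, or library 12 with both agents gave 5 to 7. For both agents against TGFβ alone, it was 8 genes without untreated library 1, and 3 without TGFβ library 4, TGFβ library 5 or library 11 with both agents, in place of 5.

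**Figure D5:**
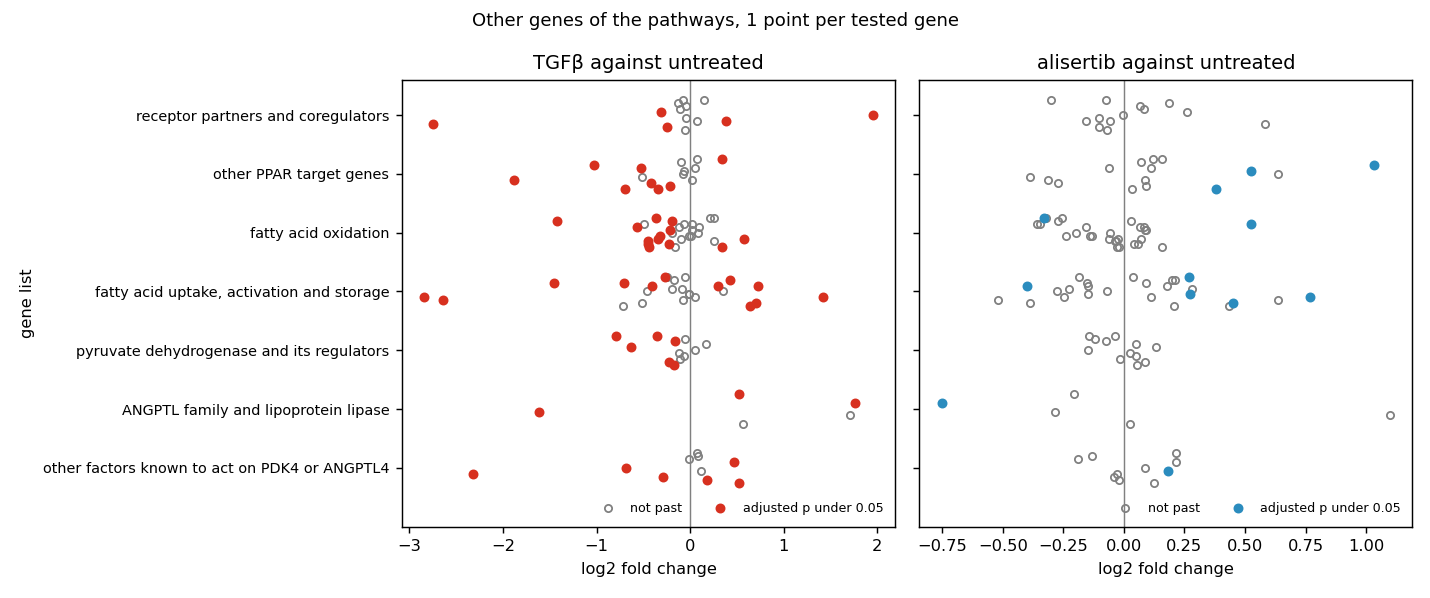
Log2 fold changes of the tested genes of the 7 lists, 1 point a gene and list, with TGFβ (left) and alisertib (right) against untreated cells, filled where the edgeR adjusted p was under 0.05. With TGFβ filled points lie on both sides and mostly below 0, 36 genes against 15, and with alisertib 11 points in all are filled for genes counted once.

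Of 15 tested other PPAR targets, 7 fell and 1 rose with TGFβ, and 3 rose and 0 fell with alisertib. With both agents against untreated cells 4 rose and 4 fell. The gene that rose with TGFβ was ACAA2, named here after its values were seen (log2 change 0.34 ± 0.07 (SE), edgeR adjusted p = 0.000727). VNN1, a pantetheinase and a known PPARα target, had its group means in the order of PLIN2: it was 11.8 ± 0.913 CPM with both agents, 8.63 ± 0.175 CPM with TGFβ, 18.2 ± 0.369 CPM with alisertib and 14.0 ± 1.41 CPM untreated (SD, n = 3). Its log2 change was -0.69 ± 0.08 (SE) with TGFβ (edgeR adjusted p = 8.76e-06), 0.38 ± 0.08 with alisertib (edgeR adjusted p = 0.0119) and 0.45 ± 0.08 with both agents against TGFβ (edgeR adjusted p = 0.0104). Each of the last 2 calls was lost on leaving out 1 library, with an adjusted p of up to 0.053 and 0.0688. UCP2, a mitochondrial carrier, was 14.9 ± 0.702 CPM with both agents, 15.1 ± 0.977 CPM with TGFβ and 55.6 ± 7.51 CPM untreated, and fell 3.69-fold with TGFβ (log2 change -1.88 ± 0.10, edgeR adjusted p = 1.05e-09). Catalase (CAT) fell by 0.35 ± 0.04 on the log2 scale with TGFβ (edgeR adjusted p = 2.15e-05). SLC25A20, the mitochondrial carnitine-acylcarnitine carrier, rose 1.44-fold with alisertib, 14.5 ± 0.744 CPM against 10.0 ± 0.718 CPM untreated (edgeR adjusted p = 0.000987). The third gene higher with alisertib was CREB3L3, named after its values were seen, at 0.694 CPM against 0.338 CPM untreated (edgeR adjusted p = 0.0498). That is a log2 change of 1.03 ± 0.29 (SE), and its call was not followed with libraries left out.

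Of 28 tested genes of fatty acid oxidation, 11 fell and 2 rose with TGFβ. ACADSB, the short/branched-chain acyl-CoA dehydrogenase, fell 2.67-fold, 10.3 ± 1.07 CPM against 27.5 ± 2.50 CPM untreated (edgeR adjusted p = 1.28e-08), and CPT2, the inner-membrane partner of CPT1A, fell 1.48-fold (edgeR adjusted p = 5.68e-06). CPT1C, the brain-type isoform of CPT1, rose 1.49-fold (edgeR adjusted p = 0.00759). With alisertib 1 gene rose, SLC25A20, and 1 fell, HADH, the 3-hydroxyacyl-CoA dehydrogenase, by 0.33 ± 0.06 on the log2 scale (edgeR adjusted p = 0.00464). The same 2 genes were called with both agents against TGFβ, SLC25A20 at a log2 change of 0.39 ± 0.08 (edgeR adjusted p = 0.0181) and HADH at -0.33 ± 0.06 (edgeR adjusted p = 0.0104). On leaving out 1 library at a time, the first was lost in 5 of 12 fits (adjusted p up to 0.0962) and the second in 2 (up to 0.0611).

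Of 25 tested genes of fatty acid uptake, activation and storage, 6 rose and 6 fell with TGFβ. G0S2, an inhibitor of the triglyceride lipase ATGL, ran in the order of ANGPTL4: 50.4 ± 4.89 CPM with both agents, 30.9 ± 3.40 CPM with TGFβ, 19.6 ± 1.22 CPM with alisertib and 11.5 ± 1.27 CPM untreated (SD, n = 3). Its log2 change was 1.42 ± 0.10 (SE) with TGFβ (edgeR adjusted p = 4.36e-08), 0.77 ± 0.10 with alisertib (edgeR adjusted p = 0.000516) and 0.70 ± 0.10 with both agents against TGFβ (edgeR adjusted p = 0.00185). SLC27A4, a fatty acid transport protein, rose 1.65-fold with TGFβ (edgeR adjusted p = 0.000254), and AQP3, a channel for water and glycerol, fell 2.73-fold (edgeR adjusted p = 2.03e-08). With alisertib 4 rose and 1 fell. Besides G0S2 these were ACSL5, an acyl-CoA synthetase (1.21-fold, edgeR adjusted p = 0.0181), MGLL, monoglyceride lipase (1.37-fold, edgeR adjusted p = 0.0395), and, named after their values were seen, ABHD5, the activator of ATGL (1.21-fold higher, edgeR adjusted p = 0.0399), and glycerol kinase GK (1.32-fold lower, edgeR adjusted p = 0.044). MGLL lost its call in 9 of 12 fits that left out 1 library, with an adjusted p up to 0.149, and ACSL5 in 3, with up to 0.0654. The calls of ABHD5 and GK were not followed with libraries left out.

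Of the 12 genes of pyruvate dehydrogenase and its regulators, the complex on which PDK4 acts, 6 fell and 0 rose with TGFβ (edgeR; 7 lower and 1 higher at an unadjusted p under 0.05, 6 and 0 with DESeq2). PDP1 and PDP2 are the phosphatases that undo what PDK4 does. PDP1 was at 79.1 ± 3.37 CPM with TGFβ and 123 ± 6.33 CPM untreated, a log2 change of -0.63 ± 0.06 (edgeR adjusted p = 4.34e-07). PDP2 was at 11.9 ± 0.368 CPM with TGFβ and 20.5 ± 0.424 CPM untreated, a log2 change of -0.79 ± 0.07 (edgeR adjusted p = 2.27e-07). DLAT, the acetyltransferase subunit, fell by 0.35 ± 0.05 on the log2 scale (edgeR adjusted p = 4.04e-05). With alisertib edgeR called 0 of the 12, with 1 higher and 2 lower at an unadjusted p under 0.05 and 0 with DESeq2. Leaving out the libraries that stood apart, edgeR called 2 higher and 1 lower, and with a term for them 1 higher and 1 lower. PDK4 was thus lower with TGFβ beside both phosphatase genes. The other kinase genes, PDK1, PDK2 and PDK3, named after their values were seen, did not pass (edgeR adjusted p = 0.534, 0.766 and 0.233). They were at 96.2, 20.3 and 13.8 CPM with TGFβ and 92.7, 21.0 and 14.9 CPM untreated. PDK4 was below all of them, at 1.36 CPM with TGFβ and 6.07 CPM untreated.

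Of 5 tested genes of the ANGPTL family and lipoprotein lipase, 2 rose and 1 fell with TGFβ. LIPG, endothelial lipase, rose 3.39-fold with TGFβ, 20.0 ± 0.252 CPM against 5.90 ± 0.420 CPM untreated (edgeR adjusted p = 1.68e-09), and fell 1.69-fold with alisertib, to 3.50 ± 0.422 CPM (edgeR adjusted p = 0.000381). With both agents it was 18.9 ± 1.53 CPM, a log2 difference of -0.08 ± 0.09 from TGFβ alone (edgeR adjusted p = 0.828). The interaction for LIPG was 0.68 ± 0.13 on the log2 scale and did not pass (edgeR adjusted p = 0.0529). DESeq2 called 1 gene of this list higher for the interaction. ANGPTL2, a secreted relative of ANGPTL4, rose 1.43-fold with TGFβ (edgeR adjusted p = 0.000652). LPL, the enzyme that ANGPTL4 inhibits, was low, at 0.597 CPM with both agents, 0.825 CPM with TGFβ, 2.09 CPM with alisertib and 2.54 CPM untreated, and had a log2 change of -1.62 ± 0.18 with TGFβ (edgeR adjusted p = 5.03e-06); it is named after its values were seen. ANGPTL4 was higher where LPL was lower with TGFβ, whereas with alisertib LPL did not pass (log2 difference -0.28 ± 0.17).

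Of 13 tested receptor partners and coregulators, 2 rose and 3 fell with TGFβ. RXRB, a partner of the PPARs, rose 1.31-fold (edgeR adjusted p = 0.00034), and PPARGC1B, a coactivator, fell by 0.31 ± 0.08 on the log2 scale (edgeR adjusted p = 0.00879). PPARGC1A, a coregulator of lower level, named after its values were seen, had a log2 change of -2.75 ± 0.25 with TGFβ (edgeR adjusted p = 4.82e-07). Its group means were 0.675 CPM with both agents, 0.427 CPM with TGFβ, 4.31 CPM with alisertib and 2.88 CPM untreated. Its difference with alisertib against untreated cells did not pass (edgeR adjusted p = 0.12). RXRA, named after its values were seen, did not pass, at a log2 difference of 0.15 ± 0.13 (edgeR adjusted p = 0.419). With alisertib edgeR called 0 of the 13, with 3 higher and 3 lower at an unadjusted p under 0.05 and 1 higher with DESeq2. When the libraries that stood apart were left out, edgeR called 4 higher and 2 lower, and with a term for them 3 higher and 3 lower.

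Of 10 other factors known to act on PDK4 or ANGPTL4, 3 rose and 3 fell with TGFβ. EPAS1, the hypoxia-inducible factor HIF-2α, fell 4.98-fold, 8.96 ± 0.511 CPM against 44.6 ± 3.41 CPM untreated (edgeR adjusted p = 4.75e-12), and was higher with both agents than with TGFβ alone, at 12.2 ± 0.296 CPM (log2 change 0.45 ± 0.07, edgeR adjusted p = 0.00297). SMAD3, a transducer of TGFβ, fell by 0.68 ± 0.04 on the log2 scale (edgeR adjusted p = 2.66e-09). FOXO1, a forkhead factor that activates PDK4 in fasting, rose by 0.52 ± 0.10 with TGFβ (edgeR adjusted p = 0.000865). FOXO3 rose 1.13-fold with alisertib (edgeR adjusted p = 0.0322), a call lost in 6 of 12 fits that left out 1 library, with an adjusted p up to 0.107.

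The genes whose pattern over the 12 libraries was most like that of PDK4, by Pearson's r of log2 CPM among the 10697 genes that averaged 5 CPM or more, were TIMP3 (r = 0.994), EPB41L4B (0.988), RAB30 (0.986), ATF3 (0.986) and TRAPPC6B (0.985). ATF3 averaged 5.29 CPM with both agents, 3.90 with TGFβ, 10.2 with alisertib and 7.75 untreated. Those most like ANGPTL4 were NAV2 (r = 0.995), CORO2B (0.991), ESAM (0.991), PRDM8 (0.987) and TLN2 (0.985). ESAM averaged 27.6 CPM with both agents, 23.2 with TGFβ, 16.3 with alisertib and 11.4 untreated. These genes keep the order of the 4 groups seen for the gene they resemble, at a smaller range, and the 12 points share the 4 groups and the 4 libraries that stood apart, so r describes that order.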

How the data were processed

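Per the labels' protocols, total RNA went into TruSeq RNA v2 libraries. The tools named in the submitters' processing notes are bcl2fastq, TopHat, Subread with featureCounts, and the build hg19, and their settings are not given in the sources used here. For every gene the authors deposited raw read counts and RPKM values computed from these, per the file headers. The RPKM denominators were 1.1 to 1.11 times the library totals. Gene lengths and hg19 positions are those of the table.

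Counts as deposited were fitted in edgeR 4.0.16 (R 4.3.3) with TMM factors and filterByExpr. There was 1 robust quasi-likelihood fit of all 12 libraries and 4 groups (8 residual degrees of freedom). The code was tried on counts simulated with the same dispersion for all genes and with changes only in the TGFβ libraries. That simulation held no alisertib changes and no libraries that stood apart, so it does not bear on the alisertib calls. SE is the log2 difference divided by the root of its F statistic. Calls are at a Benjamini-Hochberg adjusted p under 0.05 over 20571 genes. Levels are CPM or RPKM with TMM factors, as mean ± SD. The genes followed, the 7 lists and the tests were chosen with earlier results of these data known. Named are the 9 genes, up to 3 called genes of a list and comparison with the highest absolute change and an average of 5 CPM or more, and the 5 genes most like PDK4 or ANGPTL4. Where a gene outside that rule is named, the text says so. One gene that the rule selects is not reported here. Other settings were DESeq2 1.42.0, RLE factors, no filter, fits of 2 groups, each library left out, the 4 libraries that stood apart left out or given a term, and the RPKM as deposited on a log2 scale with 0.01 added. Promoter windows are RefSeq's on GRCh38.p14. The labels give libraries numbers that are not shared between groups.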

Additional observations from a re-analysis of the deposited data

How the results depend on the processing

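For the 8 tested genes, 760 recomputed differences between groups had 751 that moved by less than the spread between libraries and 9 that moved further, all from the RPKM as deposited, for PLIN2, CPT1A and PPARA (for PLIN2 with TGFβ against untreated cells -1.08 instead of -0.998). The sign turned in 11, all of values near 0. Of 144 recomputed values of the combination minus the sum, 1 moved further (CPT1A, -0.03 without the 4 libraries that stood apart), and the sign turned in 13, for CPT1A, ACADVL and PPARD. Leaving out each library in turn, the combination minus the sum ran from 0.30 to 0.63 for PDK4 and from -0.92 to -0.38 for ANGPTL4.

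Counts of called genes were less stable. With alisertib against untreated cells 1387 genes were called, against 623 with only these 2 groups fitted, 5073 without the 4 libraries that stood apart and 4057 with a term for them. Of the 100 pathway genes 11 were called, against 4, 43 and 40. Between both agents and TGFβ alone 428 genes were called, against 1434 without the 4 libraries, 1820 with the term and 705 with DESeq2, and 5 pathway genes, against 14 and 16 in the first 2 of these. For the interaction 58 genes were called, against 105 without a filter on low counts, 744 without the 4 libraries, 382 with the term and 181 with DESeq2. Of pathway genes 0 were called there, against 2 without a filter, 6, 4 and 2 with DESeq2. Leaving out each library, calls with alisertib ran from 718 (without library 7) to 2598 (without untreated library 1), with 5 to 19 pathway genes. For both agents against TGFβ they ran from 153 (without library 4) to 754 (without untreated library 1), with 3 to 8 pathway genes, and for the interaction from 19 to 166, with 0 to 2. The cause of these shifts was not tested. No paired analysis was possible because replicate numbers are not shared between groups, and the term for the 4 libraries, which were picked from the data, is not a pairing given by the labels. With 3 libraries a group the errors rest on 8 residual degrees of freedom, and FABP4 is below what this depth can show.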

Other observations

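Of the pathway genes, some were named for comparisons that the account above gives only as counts. With both agents against untreated cells, MGLL rose 1.96-fold (48.2 ± 5.66 CPM against 24.6 ± 3.93 CPM, edgeR adjusted p = 1.41e-05). ACAA2, the mitochondrial 3-ketoacyl-CoA thiolase, rose 1.33-fold (edgeR adjusted p = 0.000134). HADH fell 1.62-fold, to 38.6 ± 2.39 CPM with both agents against 62.7 ± 3.93 CPM untreated (edgeR adjusted p = 3.52e-07). NCOR1, a corepressor, fell 1.21-fold (edgeR adjusted p = 0.000154). With both agents against alisertib alone, DECR1, a reductase for unsaturated fatty acids, fell 1.38-fold (edgeR adjusted p = 0.000265), and PDHX, a pyruvate dehydrogenase component, 1.25-fold (edgeR adjusted p = 0.000227). RXRB rose with both agents against untreated cells by a log2 change of 0.25 ± 0.07 (edgeR adjusted p = 0.0082), a call lost on leaving out 1 library (adjusted p = 0.0576).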
